A study of Oryza sativa with 16 samples.

Results

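The genes described here are the 7 rice genes of the glutamine synthetase (GS) and glutamate synthase (GOGAT) cycle, chosen by their gene IDs among the 37849 genes that were counted. They are 1 plastid and 3 cytosolic GS genes, 1 ferredoxin-dependent GOGAT gene and 2 NADH-dependent GOGAT genes. Transcripts were sequenced from roots and shoots of Nagina 22 (N22), a drought-tolerant upland aus rice, and of IR64, a high-yielding lowland indica rice. Seedlings grew in pots with NH4NO3 as the sole nitrogen source and were short of nitrogen all along (N-W+), short of water (N+W-), short of both (N-W-) or well supplied (N+W+). The labels give 0.04 mM NH4NO3 for N-W+. The sources differ on the concentrations, that of N-W+ included, and none of them is used. By the labels, N-W- and N+W- plants were 21 days old and received 10 mL of water a day, and N-W+ and N+W+ plants were 15 days old and received 100 mL. The methods of the study give 1 age throughout. Going by the labelled ages, low water and plant age cannot be told apart. RNA of the biological replicates was pooled before library construction, which left 1 library for each genotype, tissue and treatment, and 16 libraries in all. N-W+ and N-W- are called low N below, and N+W- and N+W+ high N.

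In plants, GS joins ammonium to glutamate to form glutamine, and GOGAT passes the amide group of glutamine to 2-oxoglutarate to form glutamate. GS2 and Fd-GOGAT, which lie in plastids, take up ammonium from nitrate reduction and photorespiration in green tissue. The cytosolic GS1 enzymes and the NADH-dependent GOGATs act on ammonium taken up by roots and on nitrogen moved between organs.

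On IRGSP-1.0, the gene of GS2 (Os04g0659100, OsGLN2 in the files) lies on the minus strand of chromosome 4 at 33624428-33631025, with 17 exons. GS1-1 (Os02g0735200, OsGS1_1) lies on the minus strand of chromosome 2 at 30674780-30678659, with 14 exons. GS1-2 (Os03g0223400, GLN1 in the files) and GS1-3 (Os03g0712800) are on the minus strand of chromosome 3, at 6457915-6462146 with 11 exons and at 28822424-28826321 with 13 exons. The files pair Os03g0712800 with the symbol OsGS1_2, so IDs rather than symbols were used to tell the cytosolic genes apart. Fd-GOGAT (Os07g0658400, OsGLU) is the longest, with 33 exons on the minus strand of chromosome 7 at 27723089-27738212. NADH-GOGAT2 (Os05g0555600, OsGLT2) lies on the plus strand of chromosome 5 at 27631211-27636450, with 9 exons. The study describes its product as amyloplastic, so it is not set against the plastid enzymes here. The model carried as NADH-GOGAT1 (Os01g0681900, OsGLT1) is a single exon of 277 bases on the minus strand of chromosome 1 at 28091236-28091512, typed as a nontranslating CDS, and it held 37 reads over all 16 libraries.

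Exon reads numbered 8272195 to 13675454 in the root libraries and 2420338 to 11379518 in the shoot libraries. The fewest were in N22 shoots under N-W+, where exon reads were 8.5% of mapped fragments, against a shoot median of 28.8%. Counts were scaled by TMM within a tissue and are given relative to effective library size (CPM), and levels of different genes are compared as TPM, which divides by exon length. Summed TPM of 5 green-tissue marker genes ran from 2.40 to 52.8 in roots and from 10787 to 71974 in shoots, and that of 4 root marker genes from 1267 to 5498 in roots and from 5.73 to 34 in shoots. All reads assigned to the exons of the 7 genes were uniquely mapped.

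Because each condition is a single pooled library, the genotypes were the only replication. The change averaged over N22 and IR64 was taken from 1 joint edgeR model (quasi-likelihood) per tissue, in which genotype and treatment were the terms and 8 libraries entered. Its p was adjusted by Benjamini-Hochberg over all genes and called at 0.05, and it measures the spread between single pooled libraries. In that spread, a response that differs between N22 and IR64 also counts as error. A gene that was not called is therefore not shown to be unchanged in either genotype. A difference between 2 single libraries has no replicate check, and the 95% intervals given for such pairs cover counting error only. In bulk RNA, fewer cells of a type and less RNA per cell cannot be told apart.

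**Figure D1:**
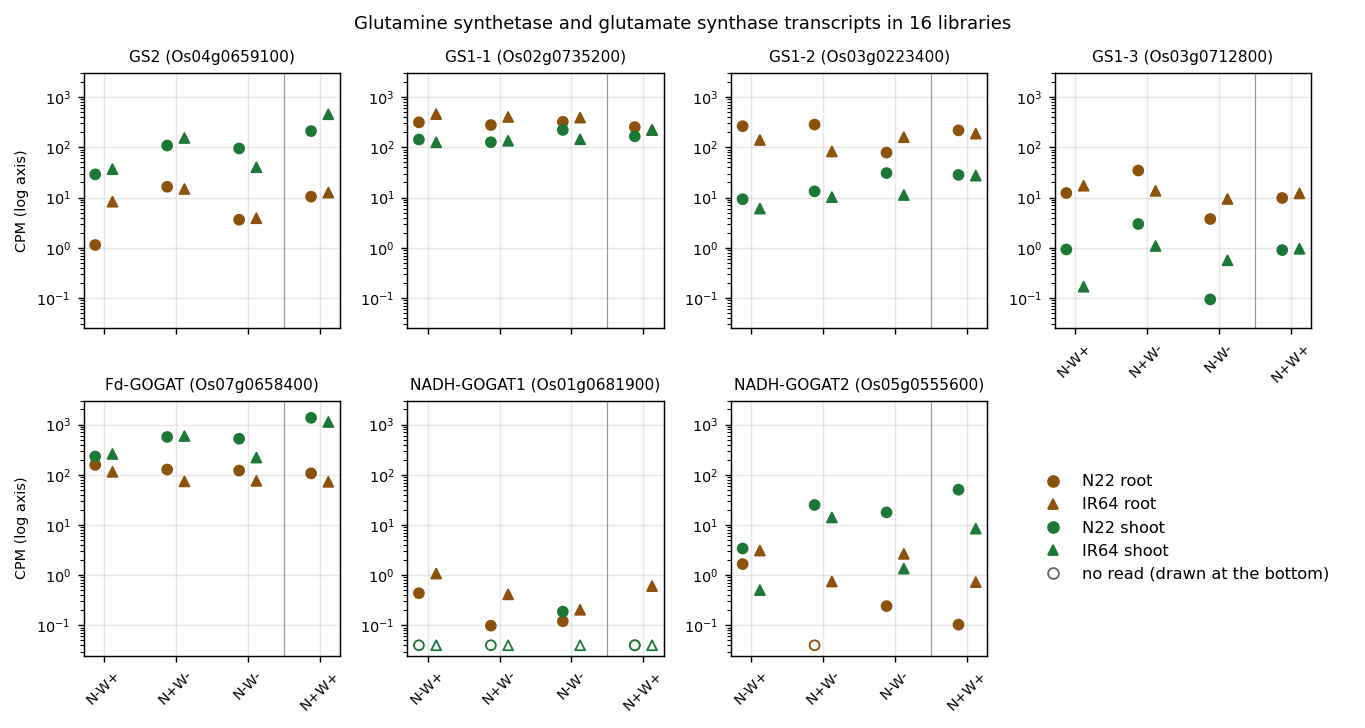
CPM of the 7 genes (log axis, TMM-scaled within each tissue) in each of the 16 libraries, with 1 point per library, brown for root, green for shoot, circles for N22 and triangles for IR64. GS2 and Fd-GOGAT lie higher in shoots than in roots in the same condition, and their shoot points are lowest under low N.

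GS1-1, a cytosolic GS, and GS1-2, the cytosolic GS known from rice roots, made up nearly all GS transcripts of roots. GS1-1 averaged 274 ± 89.7 TPM in roots and 120 ± 34.8 TPM in shoots (SD, n = 8 libraries each), and GS1-2 averaged 170 ± 70.1 TPM in roots and 14.8 ± 8.65 TPM in shoots. GS2 stood the other way, with 6.11 ± 4.06 TPM in roots and 73.4 ± 54.0 TPM in shoots, and so did Fd-GOGAT, with 27.8 ± 8.04 TPM in roots and 134 ± 81.8 TPM in shoots. GS1-3, known in rice from spikelets, was the lowest GS gene of shoots, where it held 1 to 19 reads a library. These SDs include the spread between treatments.

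In a fit over all 16 libraries, all 6 genes that passed the filter on low counts differed between root and shoot. GS1-1, GS1-2 and GS1-3 were higher in roots (3 of 6, against 31.4% of all 26422 genes tested called higher), with log2 differences of 0.83 ± 0.17, 3.32 ± 0.31 and 3.92 ± 0.42 (SE), and adjusted p of 0.00169, 5.77e-06 and 1.73e-05. GS2, Fd-GOGAT and NADH-GOGAT2 were lower in roots (3 of 6, against 25.1% of all genes), by log2 differences of -3.97 ± 0.37, -2.51 ± 0.20 and -3.70 ± 0.45, with adjusted p of 6.88e-06, 2.04e-06 and 4.43e-05. The plastid and cytosolic GS genes thus stood on opposite sides of the organ difference. With a library left out in turn, the 6 calls stayed, with adjusted p of at most 0.00967. NADH-GOGAT1 did not pass the filter.

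Within the GS pool, measured as summed TPM of the 4 genes, GS2 held 0.145% to 2.31% in roots and 13.4% to 59.7% in shoots. In shoots its share was 13.4% and 23.4% in N22 for N-W+ and N-W-, against 38.2% and 46.6% in N22 for N+W- and N+W+. In IR64 shoots it was 18.7% and 17.3% under N-W+ and N-W-, against 46.1% and 59.7% under N+W- and N+W+. The low N and high N shares did not overlap in shoots. GS1-1 took most of the rest of the shoot pool, with 65.7% to 79.8% under low N and 35.0% to 53.6% under high N.

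Roots split between GS1-1 and GS1-2 in unequal ways. GS1-1 was 48.6% and 76.0% of the GS pool in N22 roots of N-W+ and N-W- plants, against 41.3% and 47.4% under N+W- and N+W+. GS1-1 as a share of the IR64 root pool was 70.2% and 65.5% under N-W+ and N-W-, against 75.9% and 47.0% under N+W- and N+W+. At optimal supply the split was nearly the same in both genotypes, with GS1-2 at 48.9% in N22 and 47.9% in IR64. Of the stressed root libraries, GS1-2 held 49.0% (N-W+), 50.7% (N+W-) and 22.2% (N-W-) of the pool in N22, and 25.7% (N-W+), 18.8% (N+W-) and 32.1% (N-W-) in IR64. These shares carry no test.

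**Figure D2:**
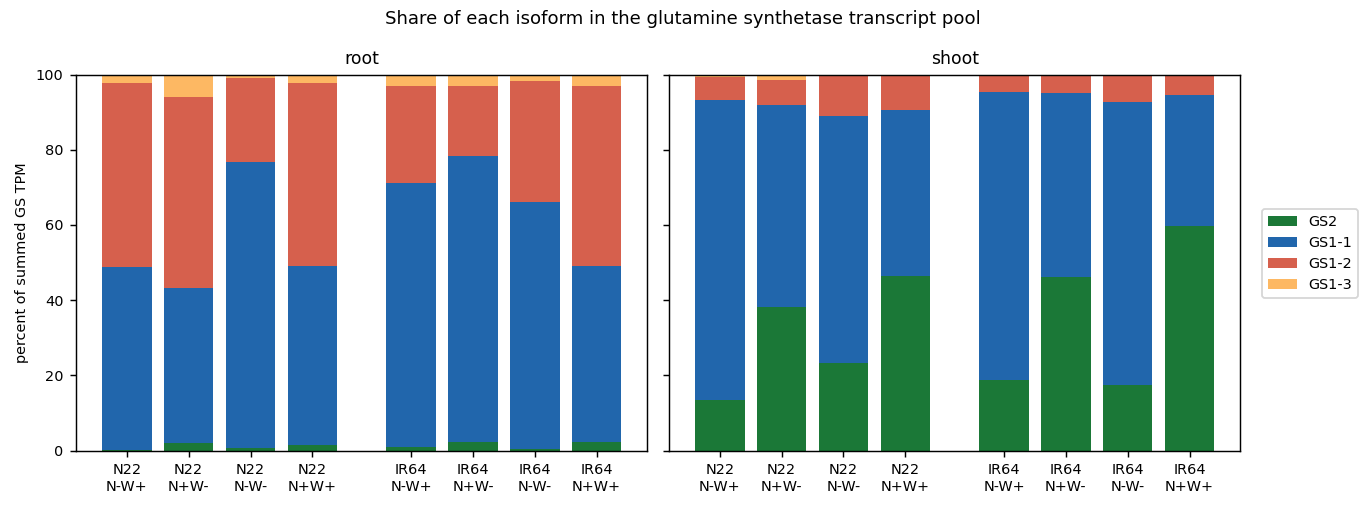
Share of each isoform in the summed TPM of the 4 GS genes, as percent, for each library, with roots on the left and shoots on the right and N22 before IR64. GS2 fills 38.2% to 59.7% of the shoot pool under high N and 13.4% to 23.4% under low N, and at most 2.31% in roots.

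In shoots, the transcripts of GS2, Fd-GOGAT and NADH-GOGAT2 were lower under low N, while GS1-1 was not called. GS2, the plastid GS, had 29.0 and 95.1 CPM in N22 shoots under N-W+ and N-W-, against 109 and 211 CPM under N+W- and N+W+. The IR64 shoots had 36.8 and 40.2 CPM under N-W+ and N-W-, against 154 and 457 CPM under N+W- and N+W+. All 4 low N libraries lay below all 4 high N libraries, and of all genes 6.83% were separated in this direction. Ordered by treatment, the levels of GS2 ran upward from N-W+ (32.9 ± 5.55 CPM, SD, n = 2 genotypes) through N-W- (67.6 ± 38.8) and N+W- (131 ± 31.8) to N+W+ (334 ± 174), and the ranges of neighbours did not overlap. With 2 libraries a treatment, this order is a description.

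Fd-GOGAT, its plastid partner, had 231 and 522 CPM in N22 shoots under N-W+ and N-W-, against 566 and 1362 CPM under N+W- and N+W+. The IR64 shoots had 260 and 220 CPM under N-W+ and N-W-, against 591 and 1124 CPM under N+W- and N+W+. Low and high N were again apart in all 8 libraries, as for 6.83% of all genes in this direction. The levels ran upward from N-W+ (246 ± 20.2 CPM, SD, n = 2) through N-W- (371 ± 214) and N+W- (578 ± 17.9) to N+W+ (1243 ± 168). N-W+ and N-W- overlapped, and the other neighbours did not.

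NADH-GOGAT2 was a low transcript with a wide genotype difference. It had 3.39 and 17.8 CPM in N22 shoots under N-W+ and N-W-, against 25 and 50.4 CPM under N+W- and N+W+. IR64 shoots had 0.502 and 1.35 CPM under N-W+ and N-W-, against 14.1 and 8.42 CPM under N+W- and N+W+. Low N lay below high N within each genotype, but N22 under N-W- exceeded both IR64 libraries at high N. The IR64 values under low N rest on 3 and 12 reads.

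Of the cytosolic GS genes of shoots, GS1-1 had 143 and 222 CPM in N22 shoots under N-W+ and N-W-, against 127 and 166 CPM under N+W- and N+W+, and 126 and 145 CPM in IR64 shoots under N-W+ and N-W-, against 135 and 222 CPM under N+W- and N+W+. Its low N and high N libraries covered nearly the same range. GS1-2 had 9.25 and 30.8 CPM in N22 shoots under N-W+ and N-W-, against 13.3 and 28.3 CPM under N+W- and N+W+. The IR64 shoots had 6.03 and 11.2 CPM under N-W+ and N-W-, against 10.2 and 27.3 CPM under N+W- and N+W+. GS1-2 was thus lowest under N-W+ in both genotypes, and its N22 library under N-W- was the highest of the 8. GS1-3 had 3 and 1 reads in N22 shoots (N-W+ and N-W-), against 19 and 6 for N+W- and N+W+, and 1 and 5 reads in IR64 shoots (N-W+ and N-W-), against 10 and 6 for N+W- and N+W+. GS1-3 and NADH-GOGAT1 did not pass the filter in shoots and were not tested there.

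Over both water supplies, 3 of 5 genes tested were lower in shoots at low N than at high N, against 7.55% of all 22913 genes. The log2 changes were -2.11 ± 0.41 for GS2 (SE, adjusted p = 0.0158), -1.51 ± 0.33 for Fd-GOGAT (adjusted p = 0.0228) and -2.90 ± 0.50 for NADH-GOGAT2 (adjusted p = 0.0114). GS1-1 gave -0.03 ± 0.26 (adjusted p = 0.954) and GS1-2 -0.59 ± 0.30 (adjusted p = 0.215). The median change of the 5 genes was -1.51, against 0.01 over all genes. Scaling by library totals in place of TMM moved the median of all genes in this comparison by 0.47, and the same 3 genes were called. The call of GS2 was lost without IR64 N+W- (log2 -2.02, adjusted p = 0.0553) or N22 N-W+ (-2.07, 0.0527), and that of NADH-GOGAT2 without N22 N+W+ (-2.80, 0.0509). Fd-GOGAT kept its call only without IR64 N-W+ or N22 N-W-, and without each of the other 6 libraries its log2 change was -1.63 to -1.25, with adjusted p from 0.0508 to 0.137.

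Against N+W+ alone, N-W+ shoots had 4 of 5 genes lower, against 5.38% of all genes. NADH-GOGAT2 fell by 3.91 ± 0.75 on the log2 scale (SE, adjusted p = 0.0246), GS2 by 3.32 ± 0.60 (adjusted p = 0.0219), Fd-GOGAT by 2.31 ± 0.48 (adjusted p = 0.0286) and GS1-2 by 1.92 ± 0.44 (adjusted p = 0.036). GS1-1 gave -0.54 ± 0.37 (adjusted p = 0.356), and with scaling by library totals 0.04. All 4 calls were lost without N22 N-W+ (log2 -4.18 to -1.91, adjusted p 0.116 to 0.182), without N22 N+W+ (-3.85 to -2.29, 0.0628 to 0.0965) or without IR64 N+W+ (-4.07 to -1.51, 0.0951 to 0.183). Without IR64 N-W+, Fd-GOGAT alone was called, and GS2, GS1-2 and NADH-GOGAT2 gave -3.43, -1.93 and -3.77 (adjusted p = 0.0528, 0.106 and 0.0654). Without the N+W- library of either genotype, Fd-GOGAT and GS1-2 lost the call, with log2 changes of -2.31 to -1.94 and adjusted p of 0.0627 to 0.0639. With library totals, GS1-2 gave -1.34 (adjusted p = 0.0601).

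In N-W- shoots none of the 5 genes was called by edgeR against N+W+, where 6.83% of all genes were, although 3 reached an unadjusted p under 0.05 and GS2 and Fd-GOGAT were the 2 called with DESeq2. The log2 changes were -2.23 ± 0.58 for GS2 (SE, adjusted p = 0.0652), -1.80 ± 0.47 for Fd-GOGAT (adjusted p = 0.066) and -1.86 ± 0.63 for NADH-GOGAT2 (adjusted p = 0.122). GS1-2 gave -0.54 ± 0.42 and GS1-1 -0.09 ± 0.37 (adjusted p = 0.474 and 0.913). Leaving out N22 N-W- brought GS2 to -3.30 (adjusted p = 0.0102) and Fd-GOGAT to -2.49 (adjusted p = 0.0261).

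Green-tissue markers moved with these values. Summed TPM of 5 genes (a chlorophyll a/b binding protein, 2 Rubisco small subunits, Rubisco activase and PsbO) was 10787 to 28607 in shoots at low N and 37503 to 71974 at high N. All 5 were called lower at low N, with a median log2 change of -2.09, and all 5 had reads in every shoot library. Of the 4 root markers, 2 passed the filter in shoots. LSI1, a silicon transporter, was lower at -1.26 ± 0.34 (SE, adjusted p = 0.0419), and RCc3 gave 3.75 ± 1.25 (adjusted p = 0.0801). Their part in the changes of GS2, Fd-GOGAT and NADH-GOGAT2 was not tested.

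**Figure D3:**
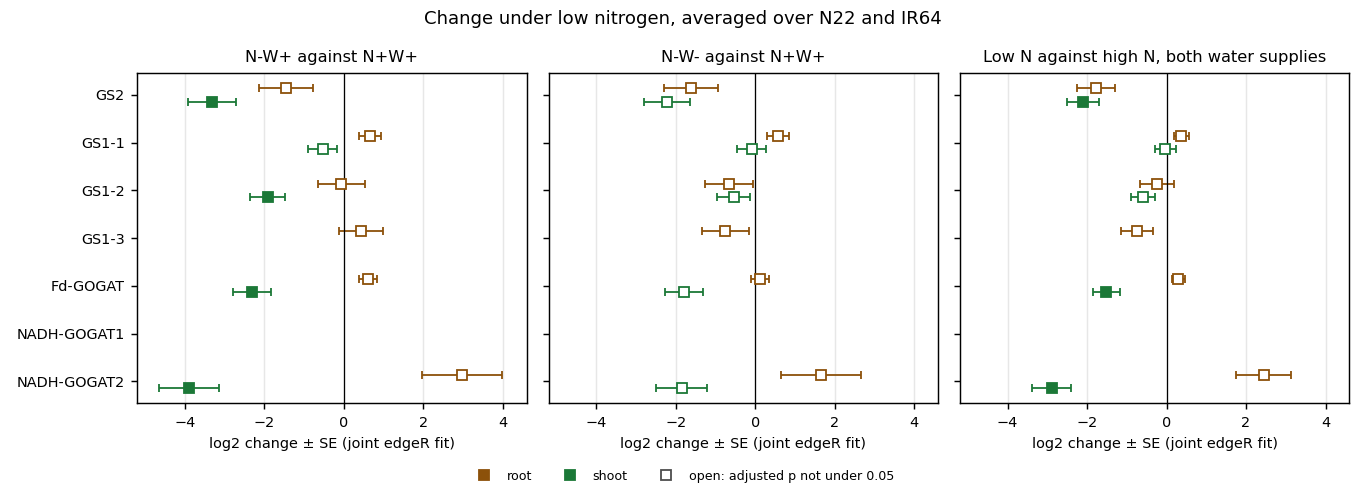
Log2 change with its SE (error bars) in the joint fit over N22 and IR64, for each gene, in roots (brown) and shoots (green), for N-W+ against N+W+, N-W- against N+W+ and low N against high N. Filled squares passed an adjusted p of 0.05, which 4, 0 and 3 genes did in shoots and none in roots.

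Pair by pair, the genotypes were also read against a fold rule of log2 2 in either direction provided that 1 of the 2 libraries reached 1 CPM. In N22 shoots under N-W+, GS2 had a log2 ratio of -2.86 (95% interval -3.18 to -2.56), Fd-GOGAT -2.56 (-2.67 to -2.45) and NADH-GOGAT2 -3.87 (-4.91 to -3.04), and 11.1% of all genes passed downward. In IR64 shoots under N-W+, GS2 had -3.63 (-3.84 to -3.43), Fd-GOGAT -2.11 (-2.19 to -2.03), NADH-GOGAT2 -3.89 (-6.39 to -2.44) and GS1-2 -2.17 (-2.74 to -1.66), where 9.74% of all genes passed downward. GS2 and NADH-GOGAT2 passed under N-W+ in both genotypes also with library totals, and Fd-GOGAT then passed in N22 (-2.11) but not in IR64 (-1.45), nor did GS1-2 (-1.51). Under N-W- IR64 shoots again had GS2 (-3.51, interval -3.67 to -3.35), Fd-GOGAT (-2.35, -2.43 to -2.28) and NADH-GOGAT2 (-2.58, -3.68 to -1.72) past it, against 9.95% of all genes. With library totals GS2 (-2.70) still passed, and Fd-GOGAT (-1.55) and NADH-GOGAT2 (-1.79) did not. No gene passed it in N22 shoots under N-W-, where 15.0% of all genes did, and GS2, Fd-GOGAT and NADH-GOGAT2 gave -1.15, -1.38 and -1.5. No gene passed it in N+W- shoots, against 10.2% of all genes in N22 and 9.15% in IR64.

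In N22 shoots, levels of the 5 genes were higher under N-W- than under N-W+. N-W- against N-W+ gave log2 ratios of 1.71 (95% interval 1.41 to 2.03) for GS2, 1.17 (1.06 to 1.29) for Fd-GOGAT, 2.37 (1.52 to 3.42) for NADH-GOGAT2, 1.73 (1.19 to 2.32) for GS1-2 and 0.63 (0.49 to 0.78) for GS1-1. In IR64 shoots the same pair gave 0.12 (-0.12 to 0.37) for GS2, -0.24 (-0.34 to -0.14) for Fd-GOGAT, 1.31 (-0.47 to 3.89) for NADH-GOGAT2, 0.89 (0.33 to 1.49) for GS1-2 and 0.20 (0.07 to 0.33) for GS1-1. The median ratio of all genes for this pair was 0.015 in N22 and 0.048 in IR64. The N22 N-W+ library is the shallowest of the series, and each ratio rests on 1 library a side. By the labels, the N-W- plants were also older than the N-W+ plants.

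In roots none of the 6 genes tested was called at low N. GS1-1 had 315 and 323 CPM in N22 roots of N-W+ and N-W- plants, against 279 and 254 CPM under N+W- and N+W+, and 459 and 392 CPM in IR64 roots of N-W+ and N-W- plants, against 403 and 222 CPM under N+W- and N+W+. It was above N+W+ in every stress library of both genotypes, but low N and high N overlapped. GS1-2 had 264 and 78.6 CPM in N22 roots of N-W+ and N-W- plants, against 284 and 218 CPM under N+W- and N+W+. The IR64 roots had 140 and 160 CPM under N-W+ and N-W-, against 83.0 and 188 CPM under N+W- and N+W+. The lowest library was N-W- in N22 and N+W- in IR64.

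GS1-3 in N22 roots had 12.3 and 3.74 CPM under N-W+ and N-W-, against 34.6 and 9.80 CPM under N+W- and N+W+. The IR64 roots had 17.2 and 9.37 CPM under N-W+ and N-W-, against 13.6 and 12.1 CPM under N+W- and N+W+. Its highest level was in N22 roots under N+W- and its lowest in N22 roots under N-W-.

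Fd-GOGAT, also transcribed in roots, had 157 and 121 CPM in N22 roots of N-W+ and N-W- plants, against 127 and 107 CPM under N+W- and N+W+. IR64 roots had 114 and 75.4 CPM under N-W+ and N-W-, against 73.5 and 72.3 CPM under N+W- and N+W+. N-W+ was the highest in both genotypes. NADH-GOGAT2 was near the detection limit in roots, with 1.66 and 0.241 CPM in N22 roots of N-W+ and N-W- (19 and 2 reads), against 0 and 1 read under N+W- and N+W+. A count of 0 allows up to 3 reads, or 0.311 CPM before TMM scaling, in that library. In IR64 roots it had 3.09 and 2.65 CPM under N-W+ and N-W- (46 and 26 reads), against 0.745 and 0.725 CPM under N+W- and N+W+ (9 and 6 reads).

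GS2 was the exception among the GS genes of roots. It had 1.13 and 3.62 CPM in N22 roots of N-W+ and N-W- plants (13 and 30 reads), against 16.4 and 10.4 CPM under N+W- and N+W+. IR64 roots had 8.26 and 3.87 CPM under N-W+ and N-W-, against 14.8 and 12.6 CPM under N+W- and N+W+. All 4 low N root libraries lay below all 4 high N ones, as 5.08% of all genes did. The green-tissue markers, traces in roots, summed to 2.40 to 26.4 TPM at low N and 15.2 to 52.8 TPM at high N, and their part in the root values of GS2 was not tested. The root markers summed to 1267 to 1873 TPM at low N and 2183 to 5498 TPM at high N, and 1 of 4 was called lower.

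By the joint test, low N against high N gave log2 changes in roots of -1.78 ± 0.48 for GS2 (SE, adjusted p = 0.0789) and 2.44 ± 0.70 for NADH-GOGAT2 (adjusted p = 0.0796). GS1-1 gave 0.37 ± 0.19, Fd-GOGAT 0.30 ± 0.16, GS1-2 -0.24 ± 0.43 and GS1-3 -0.75 ± 0.41, with adjusted p of 0.292 to 0.785. Of all genes, 7.36% were called here. GS2 and NADH-GOGAT2 had an unadjusted p under 0.05. DESeq2 called GS2 (adjusted p = 0.00565), and counts of uniquely mapped reads called GS2 and NADH-GOGAT2 (0.0474 and 0.0419). All exon reads of GS2 and NADH-GOGAT2 are unique, so the calls with unique reads rest on the same counts of these genes. They differ from the main fit only through the other genes. With the N-W+ library of IR64 or of N22 left out, GS2 was called at -2.67 (adjusted p = 0.00529) and -1.28 (0.0315).

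N-W+ against N+W+ also gave no edgeR call in roots among the 6 genes, against 2.83% of all genes. GS1-1 (0.67 ± 0.28), Fd-GOGAT (0.61 ± 0.22) and NADH-GOGAT2 (2.97 ± 1.00) had an unadjusted p under 0.05 and adjusted p of 0.251, 0.203 and 0.168, and DESeq2 called 0. GS2 gave -1.46 ± 0.68 (adjusted p = 0.313), and without IR64 N-W+ -3.29 (0.0443). N-W- against N+W+ gave 0 edgeR and 0 DESeq2 calls among the 6, with 0 at an unadjusted p under 0.05, where 1.62% of all genes were called. GS2 gave -1.62 ± 0.68 (adjusted p = 0.36), and without N22 N-W+ -1.61 (0.0477).

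Against the fold rule, N22 roots under N-W+ had GS2 at -3.15 (95% interval -4.16 to -2.36), where 5.73% of all genes passed downward, and NADH-GOGAT2 at 3.50 (1.35 to 9.38), where 2.32% passed upward. IR64 roots under N-W+ had NADH-GOGAT2 at 2.02 (0.86 to 3.61), where 2.51% of all genes passed upward, and GS2 at -0.60 (-0.99 to -0.22). No gene passed the rule under N-W- (6.21% of all genes in N22 and 7.06% in IR64) or N+W- (2.55% in N22 and 5.46% in IR64).

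The low N change of a gene was then compared between the tissues, as the change in roots minus the change in shoots in the fit over 16 libraries. Of 6 genes tested, 2 had a difference above 0, against 5.37% of all genes called in this direction. These were both GOGATs, with 5.36 ± 0.87 for NADH-GOGAT2 (SE, adjusted p = 0.00377) and 1.91 ± 0.39 for Fd-GOGAT (adjusted p = 0.00999). None of the 4 GS genes was called. Library totals shifted the median of all genes by -0.61 and gave 4.78 and 1.33, with both still called. Leaving out IR64 root N-W- brought NADH-GOGAT2 to 4.68 (adjusted p = 0.074), and the root values of this gene rest on 0 to 46 reads a library.

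Low water without low N gave no call for any of the genes, and by the labels the plants short of water were also older. In roots under N+W- the log2 changes of the 6 genes ran from -0.26 ± 0.61 (GS1-2) to 1.17 ± 0.57 (GS1-3), the smallest unadjusted p was 0.0802, for GS1-3 (adjusted p = 0.739), and DESeq2 called 0. Of all genes, 0.00824% were called. In shoots under N+W- the 5 genes ran from -1.33 ± 0.55 (GS2) to 0.03 ± 0.57 (NADH-GOGAT2), and 3 had an unadjusted p under 0.05. The smallest was 0.0184, for GS1-2 (adjusted p = 0.348), and DESeq2 called 0 of the 5. No gene of the genome was called by edgeR in N+W- shoots (0%), although 2647 reached an unadjusted p under 0.05 and 641 were called with DESeq2. Over both nitrogen supplies, low water against ample water gave 0 calls among the genes by edgeR and by DESeq2, and 0 at an unadjusted p under 0.05, in roots and in shoots. The log2 changes ran from -0.79 (NADH-GOGAT2) to 0.19 (GS1-1) in roots and from -0.28 (Fd-GOGAT) to 1.04 (NADH-GOGAT2, SE 0.48) in shoots. Over all genes edgeR called 0% in both tissues, with 1920 in roots and 1272 in shoots at an unadjusted p under 0.05, and DESeq2 called 201 and 96.

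Both calls between N22 and IR64 were GOGATs. Fd-GOGAT was higher in N22 roots than in IR64 roots under all 4 treatments, with log2 ratios of 0.46 (95% interval 0.36 to 0.56) under N-W+, 0.79 (0.67 to 0.91) under N+W-, 0.68 (0.54 to 0.82) under N-W- and 0.56 (0.41 to 0.71) under N+W+. The joint test gave 0.62 ± 0.16 (SE, adjusted p = 0.0383), as the only call among 6 genes, against 6.72% of all genes called higher. The N22 and IR64 values nevertheless overlapped over the treatments, and the call was lost without any 1 of the 8 root libraries (log2 0.56 to 0.68, adjusted p 0.0833 to 0.147) and with library totals (0.57, 0.0578). In shoots Fd-GOGAT gave 0.32 ± 0.33 (adjusted p = 0.608).

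NADH-GOGAT2 was higher in N22 shoots than in IR64 shoots under all 4 treatments. The log2 ratio was 2.60 (95% interval 0.84 to 5.24) under N-W+, 0.83 (0.49 to 1.17) under N+W-, 3.66 (2.88 to 4.70) under N-W- and 2.57 (2.16 to 3.03) under N+W+. The joint test gave 2.36 ± 0.50 (SE, adjusted p = 0.0353), the only call among 5 genes, against 2.49% of all genes called higher. It held without either N+W- library, and without each of the other 6 libraries the log2 difference was 1.86 to 2.29, with adjusted p of 0.0644 to 0.128. In roots the sign was the opposite, with fewer reads in N22 in all 4 treatments, and the joint test gave -2.34 ± 0.72 (adjusted p = 0.0686, and 0.0375 by DESeq2). The 2 tissues were not tested against each other for this difference.

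The GS genes were not called between the genotypes in either tissue. In roots the differences were -0.64 ± 0.49 for GS2, -0.29 ± 0.19 for GS1-1, 0.48 ± 0.45 for GS1-2 and -0.16 ± 0.41 for GS1-3 (log2, SE), with adjusted p of 0.347 to 0.832. In shoots they were -0.20 ± 0.40 for GS2, 0.07 ± 0.27 for GS1-1 and 0.62 ± 0.30 for GS1-2, with adjusted p of 0.272 to 0.9. The sign of GS2 in shoots turned with library totals (0.11).

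Whether the response to nitrogen or water differed between N22 and IR64 was tested with interaction terms, which left 2 residual degrees of freedom. Unlike the fits within a tissue, these fits held no nitrogen by water term. Any such effect went into their residual, which can hide a difference between the genotypes. No gene of the genome was called by edgeR (0%) in either tissue, for nitrogen or for water. Among the genes described here, 0 reached an unadjusted p under 0.05 and 0 were called with DESeq2. The smallest unadjusted p were 0.0741 (GS2, genotype by water in roots) and 0.0928 (GS2, genotype by nitrogen in roots). Over all genes, an unadjusted p under 0.05 was found for 293 (nitrogen) and 216 (water) in roots and 548 and 613 in shoots, and DESeq2 called 4, 15, 21 and 5. The pair values of N22 and IR64 given above are therefore not shown to differ in their response.

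Other genes of nitrogen assimilation and photorespiration, 33 in 7 lists, were set beside these genes. In shoots at low N, 13 of 31 tested were lower and 2 higher, where 7.55% of all genes were lower and 10.7% higher, with a median log2 change of -0.99, against 0.01 over all genes. Nitrate and nitrite reduction, 1 source of ammonium in leaves, had 4 of 5 lower, with NiR (nitrite reductase, Os01g0357100) at -3.39 ± 0.36 (SE, adjusted p = 0.00253), OsNR1 (nitrate reductase, Os08g0468100) at -2.88 ± 0.44 (adjusted p = 0.00734) and Os02g0765900 at -4.21 ± 0.73 (adjusted p = 0.0128). Photorespiration had 4 of 6 lower and 1 higher, GLO3 (a glycolate oxidase, Os04g0623500) at 2.12 ± 0.36 (adjusted p = 0.0112). The list of ferredoxins, which feed electrons to Fd-GOGAT, and their reductases had 2 of 6 lower, among them Fd1 (Os08g0104600) at -2.23 ± 0.42 (adjusted p = 0.0148). OsASNase1 (an asparaginase, Os03g0597600) was higher, by 1.61 ± 0.23 (adjusted p = 0.00665).

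In roots at low N, 4 of 28 of these list genes were higher and 1 lower, where 2.71% of all genes were higher and 4.66% lower, with a median log2 change of -0.21, against 0.02 over all genes. The asparagine list had 3 of 4 higher, OsASNase2 (Os04g0650700) by 2.64 ± 0.19 (SE, adjusted p = 0.000568), ASN (asparagine synthetase, Os06g0265000) by 1.84 ± 0.20 (adjusted p = 0.00281) and OsASNase1 by 0.83 ± 0.17 (adjusted p = 0.0303). A ferredoxin named Fd in the files (Os05g0443500) was higher by 1.75 ± 0.36 (adjusted p = 0.0363). OsGDH2 (a glutamate dehydrogenase, which can release ammonium from glutamate, Os04g0543900) was lower, at -1.28 ± 0.17 (adjusted p = 0.00542). The aminotransferase with the smallest p, Os06g0548000, gave -0.65 ± 0.18 (adjusted p = 0.0704).

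**Figure D4:**
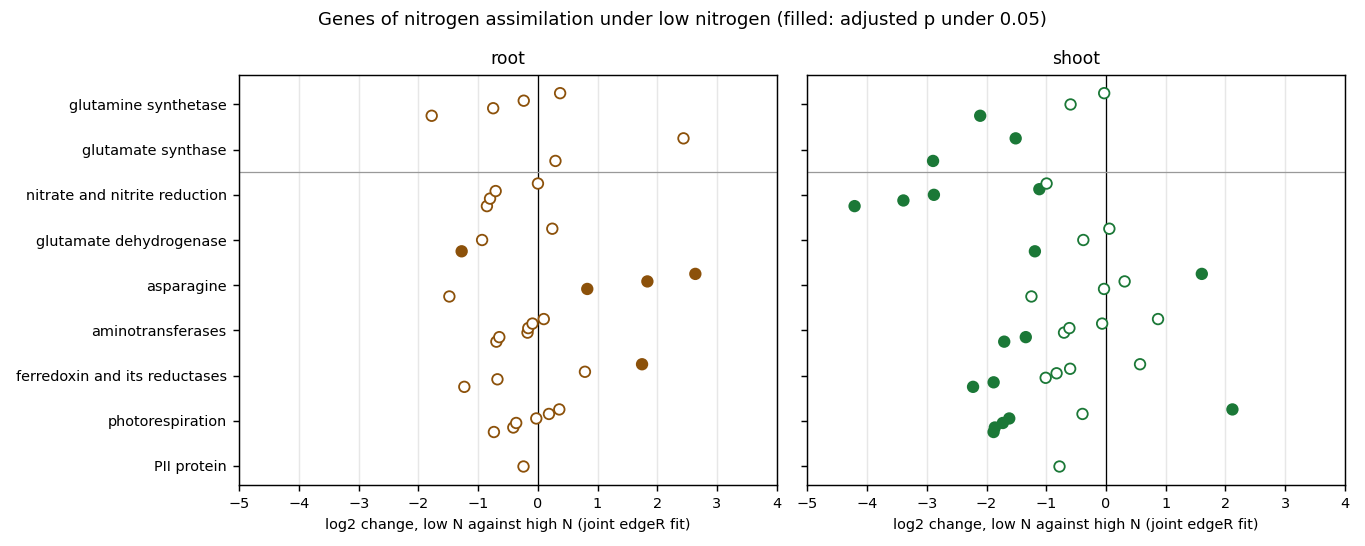
Log2 change of low N against high N in the joint fit, 1 point per gene tested, for the GS and GOGAT genes (top 2 rows) and the 7 other lists of nitrogen assimilation, with roots on the left and shoots on the right. Filled points passed an adjusted p of 0.05, with 3 GS and GOGAT genes and 15 list genes in shoots, and no GS or GOGAT gene and 5 list genes in roots.

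Likeness of pattern was measured as Pearson's r of log2 CPM over the 16 libraries, among 17856 genes with at least 5 CPM in 4 or more libraries. These libraries share a tissue difference, so r is high for many pairs and is given as a description. Fd-GOGAT was most like Os01g0682500 (r = 0.987), OsISC3 (0.983) and Os08g0526300 (0.981), and GS2 most like Os02g0693500 and Os01g0856900 (0.972 each) and OsCNGC9 (0.961). GS1-1 was most like RR24 (0.911), Os03g0197400 (0.906) and v-ATP-E (0.906), and GS1-2 most like MT1A (0.968), Os07g0442900 (0.967) and Os01g0885700 (0.963). GS1-3 was most like Os04g0266900 and OsNIP3_3 (0.957 each) and Os05g0256500 (0.943), and NADH-GOGAT2 most like NYC3 (0.947), OsIAA25 (0.94) and Os04g0503500 (0.925). Among the members, GS2 and Fd-GOGAT had an r of 0.875 over the 16 libraries, 0.953 over the 8 shoot libraries and -0.49 over the 8 root libraries. The difference between these values was not tested.

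NADH-GOGAT1, the NADH-dependent GOGAT that rice roots are known to induce with ammonium, could not be followed by its own model. The 277-base model had 5 and 1 reads in N22 roots of N-W+ and N-W- plants, against 1 and 0 under N+W- and N+W+, and IR64 roots had 16 (N-W+) and 2 (N-W-), against 5 and 5 under N+W- and N+W+. In shoots it had 2 reads in N22 N-W- and 0 in the other 7 libraries. The next model on the same strand with many reads, Os01g0682001, starts 7334 bases further along chromosome 1, at 28098847-28102930, and carries no symbol in the files. It was looked at after its values were seen, and no name or role is given to it here. It had 328 and 316 CPM in N22 roots of N-W+ and N-W- plants, against 198 and 201 CPM under N+W- and N+W+, and 347 and 302 CPM in IR64 roots of N-W+ and N-W- plants, against 148 and 218 CPM under N+W- and N+W+. Its log2 change in roots at low N was 0.76 ± 0.18 (SE), given as a description because the gene was picked by its values. Its edgeR call in the joint fit was lost once any 1 of the 8 root libraries was left out, and it is not read as a result.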

How the data were processed

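Transcripts were measured by paired-end RNA sequencing of 16 pooled libraries. The authors trimmed the reads with sickle and mapped them with the CLC Genomics Workbench. The labels name CASAVA and the build IRGSP-1.0. The count columns, as deposited by the authors, are raw numbers of reads per gene, for exons, introns and the whole gene, both total and unique. The TPM column, as deposited by the authors, is reads per exon base scaled within a library, and the RPKM column deposited beside it uses the mapped fragments of the library. Strand was not given in the sources used here. The study's summary of reads orders the IR64 stress libraries otherwise than the labels. Under that order some IR64 libraries would change between low N and high N. The study's text gives the fewest raw reads to IR64 shoots under N-W+, which by the labels have the fewest mapped fragments. The labels were used, and every comparison of low N with high N that includes IR64 rests on this choice.

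Total exon reads were tested with edgeR 4.0.16 (glmQLFit robust, filterByExpr, TMM) in R 4.3.3, with Benjamini-Hochberg adjustment over all genes and a threshold of 0.05. The fits within a tissue used 8 libraries and genotype and treatment terms (3 residual degrees of freedom). The interaction fits, without a nitrogen by water term, had 2 and the fit over all 16 libraries 6. Root and shoot came from the same plants, by the study's methods, and a fit with each genotype and treatment as a block of its root and shoot (3 residual degrees of freedom) was added after seeing the data. Pair ratios used a prior count of 0.5 and exact binomial 95% intervals, and a count of 0 was given a limit of 3 reads. Likeness used a prior count of 2. The scripts were tested on simulated data. Alternatives were RLE size factors, library totals, DESeq2 1.42.0, no filter, unique exon reads, gene reads, a minimum of 5 CPM, RPKM with a pseudocount of 1 and each library left out. Tables and plots were made in Python 3.11.

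The members and the lists of other genes were chosen with earlier results of these data known. The rule was to name all 7 members, up to 6 list genes a tissue with the smallest adjusted p, and the 3 most alike genes of each member that passed the filter. The range of depth is in the report, and counting error is only part of the error of a pooled library. No genome sequence was used, and promoter motifs were not searched.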

Additional observations from a re-analysis of the deposited data

Results flagged for a closer look

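For 2 genes the change under low N differed between roots and shoots by a test of the difference itself. NADH-GOGAT2 had a root change minus shoot change of 5.36 on the log2 scale (SE 0.87, adjusted p = 0.00377, edgeR over 16 libraries). Its root values rest on few reads. N22 roots had 19 and 2 reads under N-W+ and N-W-, against 0 and 1 under N+W- and N+W+. IR64 roots had 46 and 26 reads under N-W+ and N-W-, against 9 and 6 under N+W- and N+W+. A count of 0 allows up to 3 reads, so 2 reads in N22 N-W- are not apart from 0 in N22 N+W-. Fd-GOGAT had 1.91 (SE 0.39, adjusted p = 0.00999). Its low N libraries lay below all high N libraries in shoots, as for 6.83% of all genes, and overlapped them in roots. Groups of 4 libraries that share a nitrogen supply differ in genotype and water, and no single library was picked out in them.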

How the results depend on the processing

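The labels give no replicate numbers, and the fits within a tissue compare treatments within a genotype. With root and shoot of the same plants as a block, added after seeing the data, the same number of genes was called between roots and shoots (6) and for the tissue difference at low N (2), no call of a gene changed, NADH-GOGAT2 and Fd-GOGAT gave tissue differences of 6.08 and 1.97 (adjusted p = 0.00443 and 0.0282), and the count over all genes for that difference was 2305, against 3753 without the block. Of the 347 alternative values of single genes with all libraries kept, 328 had the same direction and call. Library totals turned the sign of 8 values that were not called: GS1-2 in N-W+ roots (0.0712), GS1-1 in shoots under N-W+ (0.039), N-W- (0.44) and low N (0.44), GS2 between the genotypes in shoots (0.11), and the tissue difference in the low N change for GS2 (-0.13), GS1-1 (-0.10) and GS1-2 (-0.15). The median of all genes moved with this scaling by 0.55 for N-W+, 0.53 for N-W- and 0.47 for low N in shoots, and by 0.29 between the genotypes in shoots.

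Library totals brought the genes called in N-W+ shoots from 4 to 3. The number called moved by more than 1.5 times in 3 comparisons: in roots at low N (0) to 1 with DESeq2 and 2 with unique exon reads, between the genotypes in roots (1) to 0 with library totals and 2 with DESeq2 or unique exon reads, and in N-W- shoots (0) to 2 with DESeq2 or unique exon reads. Unique and total exon reads are equal for every member, so that setting changed only the counts of other genes. Of the stress pairs, 3 values of root genes passed the fold rule, 1 with a minimum of 5 CPM and 0 with RPKM and a pseudocount of 1. In shoots 10 passed, 6 with library totals and 5 with RPKM.

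With a library left out, the number called ran from 0 to 4 in N-W+ shoots, 0 to 2 in N-W- shoots, 1 to 3 in shoots at low N, 0 to 1 between the genotypes in shoots, 6 to 7 between roots and shoots and 1 to 2 for the tissue difference at low N. In roots it ran from 0 to 1 under N-W+, N-W- and low N and was 0 between the genotypes. Values that were not called changed sign for GS1-2 in roots under N-W+ (-0.38 to 0.23), N-W- (-1.90 to 0.0881) and low N (-0.81 to 0.25), GS1-3 between the genotypes in roots (-0.69 to 0.19), GS1-1 in shoots under N-W- (-0.47 to 0.26) and low N (-0.22 to 0.15), GS2 and GS1-1 between the genotypes in shoots (-0.67 to 0.12 and -0.12 to 0.24), and GS2 and GS1-2 in the tissue difference (-0.47 to 1.03 and -0.11 to 0.95).

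Over all genes, edgeR called 688, 393 and 1788 in roots under N-W+, N-W- and low N and DESeq2 1829, 1238 and 2936, and in shoots edgeR called 2975 and 1566 under N-W+ and N-W- and DESeq2 5050 and 3789. Between the genotypes in shoots these were 1517 and 3169. Depth limits NADH-GOGAT2 in roots and GS1-3 in shoots, and NADH-GOGAT1 is limited by its model of 277 bases.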

Other observations

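The summed TPM of the 3 cytosolic GS genes was 159 and 217 in N22 shoots of N-W+ and N-W-, against 101 and 144 under N+W- and N+W+, and 108 and 145 in IR64 shoots of N-W+ and N-W-, against 88.7 and 120 under N+W- and N+W+. The GOGAT sum was 79.0 and 154 TPM in N22 shoots under N-W+ and N-W-, against 139 and 342 TPM under N+W- and N+W+, and 68.0 and 65.5 TPM in IR64 shoots under N-W+ and N-W-, against 120 and 173 TPM under N+W- and N+W+. These sums carry no test. NADH-GOGAT1 added at most 0.986 TPM to a shoot GOGAT sum, because its 277-base model could not follow the gene. The GOGAT sum therefore stands for Fd-GOGAT and NADH-GOGAT2 only, and is not read as the whole GOGAT pool. TPM is not TMM-scaled, and in shoots at low N scaling by library totals raised the median log2 change of all genes by 0.47. With TMM, GS1-1 gave -0.03 and GS1-2 -0.59 there, so a higher sum is not read as a rise.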
